A study of Mus musculus with 12 samples.

Results

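Promoter methylation of 4 families of developmental transcription factors was compared between mice with induced Dnmt3b and control mice. The members were the genes whose symbol in the deposited tables is Sox, Pax, Tbx or Zic followed by digits alone. Under this rule 35 of the 12098 listed genes were analysed, of which 14 were Sox, 8 Pax, 10 Tbx and 3 Zic genes. The rule goes by gene symbols.

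Dnmt3b is a de novo DNA methyltransferase, which places methyl groups on cytosines of CpG sites that carried none. Sox proteins bind DNA through an HMG box, Pax proteins through a paired domain, Tbx proteins through a T-box and Zic proteins through zinc fingers. All 4 families set cell identity in the embryo, and many of their promoters lie in CpG islands that are held by Polycomb proteins, without DNA methylation, in tissues where the gene is silent. In the adult gut, Sox9 is active in the crypt, where it marks stem, progenitor and Paneth cells, Sox4 is expressed in crypt progenitors, and Pax6 acts in hormone-secreting enteroendocrine cells.

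The induced group was 3 C57BL/6 mice that drank water with doxycycline at 0.5 g/l for 3 months, renewed every 3 days. The control group was 3 C57BL/6 mice on plain drinking water. The labels name neither the promoter that drives Dnmt3b nor the transgene status of the controls, so doxycycline and Dnmt3b induction cannot be told apart. Epithelial cells were isolated from the colon of each mouse, the DNA was cut with MspI, which recognises CCGG, and reduced representation bisulfite libraries were made from short fragments (40 to 120 nt) and from long fragments (120 to 220 nt), giving 6 libraries for each length.

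The deposited value of a gene is the mean methylation over CpGs of its promoters, given here in percent, and a difference is in percentage points. No read counts accompany these values, so the depth behind a level is unknown, and a listed 0% can come from very few reads. Short-fragment libraries listed 10358 to 10838 genes and long-fragment libraries 7278 to 8108 genes. A change was tested with limma over every gene listed in all 6 libraries of a fragment length, 10027 genes for short and 6127 for long fragments, and it was called where the Benjamini-Hochberg adjusted p over all of these was under 0.05. Values per mouse are in the order of the mouse numbers, 1 to 3, and errors of levels are SDs over 3 mice. In bulk DNA, partial methylation in every cell and full methylation in a share of the cells cannot be told apart.

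Over all genes, the median level was 0.793% in induced and 0.133% in control mice for short fragments, and 1.47% in induced and 0.07% in control mice for long fragments. Promoters of the colon epithelium markers measured were low in both groups, apart from Krt18, a keratin gene, in long fragments. For short fragments 6 of 16 listed markers were measured, none passed the threshold, and their summed level ran between 1.02 and 3.31 points in induced mice and between 0.29 and 7.35 points in control mice. For long fragments 8 of 16 were measured and none passed, with sums of 30.6 to 39.8 points in induced and 23.0 to 28.6 points in control mice that did not overlap. Krt18 made up most of these sums, with a mean of 30.2% in induced and 22.8% in control mice. The promoters of 2 of 6 endothelial markers were measured for short fragments and both rose, with sums of 152 to 160 points in induced and 4.13 to 7.29 points in control mice. Of 10 markers of stroma and smooth muscle, 4 of the 5 measured for short fragments rose, with sums of 239 to 309 points in induced and 42.9 to 49.5 points in control mice, and for long fragments all 3 measured rose, with sums of 107 to 216 points in induced and 3.3 to 6.76 points in control mice. For long fragments 1 of 14 leukocyte markers and 1 of 6 markers of enteric glia and neurons were measured, and both rose. A high level at such a promoter does not show how many cells of that type a sample held, and the part of cell composition in the members' values was not tested.

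Most members were methylated in induced mice and close to unmethylated in control mice. For short fragments 27 of 32 tested members rose, 0 fell and 5 did not pass, where 27.6% of all tested genes rose and 0.0798% fell. For long fragments 15 of 22 tested members rose, 0 fell and 7 did not pass, where 23.2% of all tested genes rose and 0.0163% fell. The members' shares that rose were 84.4% for short and 68.2% for long fragments, above the shares of all genes. Libraries were also median-centred, by subtracting from each the median of its deviations from the gene means. Then 27 members rose and 1 (Sox13) fell for short fragments, beside 2844 genes that rose and 2368 that fell. For long fragments 18 members rose and 0 fell, beside 1628 genes that rose and 1938 that fell. Such centring lowered every difference of a length by the same amount, which took differences near 0 below 0. Sox13 moved from 0.05 to -0.346 points for short fragments in this way.

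The change was also larger than that of the median gene. The median level of the members for short fragments was 66.1% in induced and 1.84% in control mice, and for long fragments 59.8% in induced and 1.58% in control mice. The median difference was 61.4 points for short fragments, with a range of -0.48 to 82.6, against 0.50 points over all genes tested. The long-fragment median was 57.0 points, with a range of 0.253 to 76.0, against 0.943 points over all genes tested. Differences above 50 points were found for 21 of 32 members with short and 14 of 22 with long fragments. Such differences were not counted over all genes, but each needs an induced level above 50%. An induced mean of 50% or more was met by 18.5% of all tested genes for short and 20.4% for long fragments.

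Low starting levels were the rule, among members as among all genes. Of all tested genes 90.3% were under 10% in control mice for short and 87.3% for long fragments. In control mice 29 of 32 members were under 10% for short fragments, and 19 of these 29 reached 50% or more in induced mice while 3 stayed under 10%. Of the 9052 genes that were under 10% in control mice, 14.1% reached 50% in induced mice and 75.8% stayed under 10%. For long fragments 18 of 22 members were under 10% in control mice, of which 11 reached 50% or more and 3 stayed under 10% in induced mice. Among 5347 genes with such a start, 14.8% reached 50% and 72.0% stayed under 10%.

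The groups did not overlap, with all 3 induced mice above all 3 control mice, for 29 of 32 members with short and 19 of 22 with long fragments. This order was met by 39.5% of all tested genes for short and 38.2% for long fragments. No member had all induced mice below all control mice, an order met by 0.908% of genes for short and 0.277% for long fragments. Members and all genes are thus set side by side as counts, and no test was made of the families as lists.

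**Figure D1:**
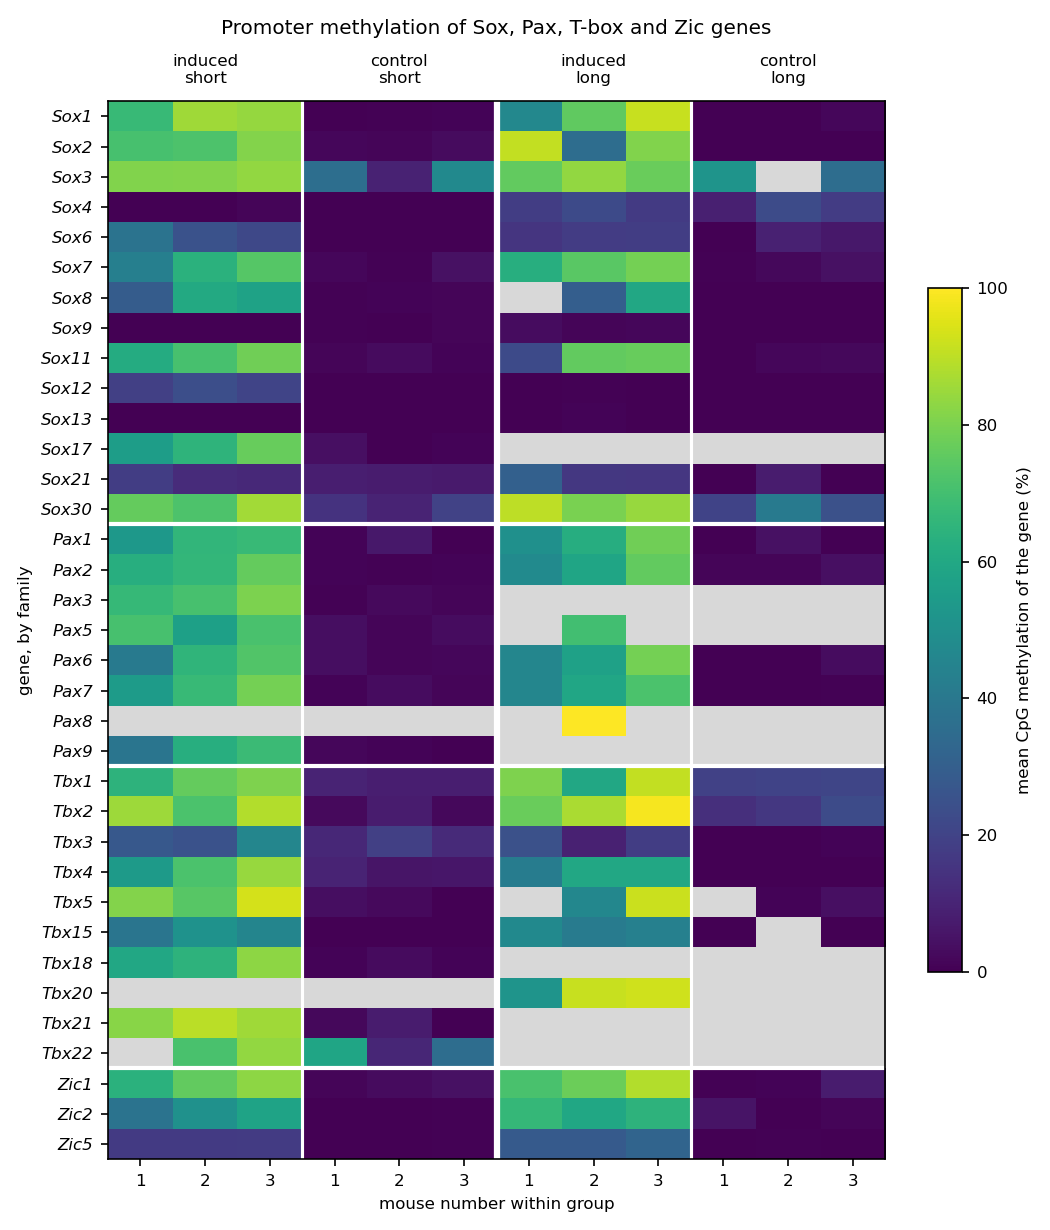
Methylation level in percent (colour) of the 35 members (rows, by family) in each of the 12 libraries (columns, induced mice left of control mice within each fragment length); grey marks a gene that a library does not list. Most rows are bright green to yellow (high) in the induced and dark purple (low) in the control columns, whereas Sox9, Sox13 and Sox4 are dark for short fragments in both groups.

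The promoter sequences below show how different the CpG content of members was. Each is the RefSeq window of 250 bases before and 50 bases after the gene's start in GRCm38.p6, written 5′ to 3′ on the gene's strand, with CG dinucleotides in capitals. They were chosen because Sox2 and Tbx21 had large changes, Sox4 and Sox13 had almost none, and Sox12 and Zic5 changed by different amounts in the 2 fragment lengths. The sources used here do not give the window behind the authors' promoter values. These bases need not be the ones measured.
Sox2, chr3:34649745-34650044, plus strand: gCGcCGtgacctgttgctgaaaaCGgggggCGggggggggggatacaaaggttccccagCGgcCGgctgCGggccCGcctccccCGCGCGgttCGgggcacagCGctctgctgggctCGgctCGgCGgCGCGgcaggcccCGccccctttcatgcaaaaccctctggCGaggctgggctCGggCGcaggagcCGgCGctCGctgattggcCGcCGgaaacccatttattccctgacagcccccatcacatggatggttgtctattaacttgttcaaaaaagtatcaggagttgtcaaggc
Tbx21, chr11:97115282-97115581, minus strand: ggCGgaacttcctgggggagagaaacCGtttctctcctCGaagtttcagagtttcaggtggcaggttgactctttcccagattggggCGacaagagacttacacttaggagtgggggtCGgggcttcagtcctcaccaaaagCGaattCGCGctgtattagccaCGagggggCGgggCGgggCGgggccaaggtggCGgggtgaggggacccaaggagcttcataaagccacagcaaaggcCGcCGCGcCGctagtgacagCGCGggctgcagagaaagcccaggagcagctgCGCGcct
Sox12, chr2:152397997-152398296, minus strand: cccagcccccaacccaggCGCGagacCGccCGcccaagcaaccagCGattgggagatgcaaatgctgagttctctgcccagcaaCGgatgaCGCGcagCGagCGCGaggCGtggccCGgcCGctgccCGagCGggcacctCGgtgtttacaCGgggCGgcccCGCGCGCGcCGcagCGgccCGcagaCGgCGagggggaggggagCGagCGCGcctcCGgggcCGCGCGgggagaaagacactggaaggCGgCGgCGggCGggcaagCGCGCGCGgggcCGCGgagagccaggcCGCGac
Zic5, chr14:122465609-122465908, minus strand: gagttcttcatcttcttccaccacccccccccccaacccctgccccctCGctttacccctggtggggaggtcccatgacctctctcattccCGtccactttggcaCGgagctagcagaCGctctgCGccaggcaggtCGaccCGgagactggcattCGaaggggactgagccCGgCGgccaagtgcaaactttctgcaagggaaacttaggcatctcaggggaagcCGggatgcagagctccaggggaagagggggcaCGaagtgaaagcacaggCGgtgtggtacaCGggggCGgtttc
Sox4, chr13:28953650-28953949, minus strand: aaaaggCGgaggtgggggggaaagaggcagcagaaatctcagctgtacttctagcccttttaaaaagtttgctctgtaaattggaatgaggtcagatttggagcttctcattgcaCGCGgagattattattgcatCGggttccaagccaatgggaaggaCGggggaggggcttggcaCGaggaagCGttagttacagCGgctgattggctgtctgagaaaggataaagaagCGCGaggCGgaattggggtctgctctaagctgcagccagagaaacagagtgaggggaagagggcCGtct
Sox13, chr1:133424163-133424462, minus strand: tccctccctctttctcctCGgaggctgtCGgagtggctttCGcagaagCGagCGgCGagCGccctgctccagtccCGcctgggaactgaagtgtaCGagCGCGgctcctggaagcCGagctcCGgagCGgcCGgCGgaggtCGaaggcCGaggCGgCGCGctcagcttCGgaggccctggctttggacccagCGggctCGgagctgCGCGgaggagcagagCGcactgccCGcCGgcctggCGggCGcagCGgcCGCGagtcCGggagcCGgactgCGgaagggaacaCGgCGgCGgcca

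The Sox2 window holds 27 CG and 3 CCGG, the Tbx21 window 21 CG and 0 CCGG, and the Sox12 window 47 CG and 2 CCGG. The Zic5 window holds 15 CG and 3 CCGG, the Sox4 window 12 CG and 0 CCGG, and the Sox13 window 40 CG and 5 CCGG. A window was found for 25 members, and 20 of them had a single one. These 20 held 7 to 47 CG with a median of 21, against a median of 7 over 32851 RefSeq windows of the same length. The cut site CCGG, which reads the same on both strands, stood in 15 of the 20, against 52.8% of all windows. Members had to be listed in libraries of MspI fragments, whereas the RefSeq windows cover 27025 genes, listed or not. Neither comparison therefore sets the members apart from other listed genes. Across the 18 of them that were tested for short fragments, the number of CG in the window and the change in methylation had a Spearman correlation of 0.15 and a Pearson correlation of -0.13, given as a description over members that share their libraries. CG-dense windows were therefore found on both sides, as Sox2 and Sox13 show.

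Within the Sox family the change followed the members unevenly. Beside the counts of this and the other families, 27.6% of all tested genes rose for short and 23.2% for long fragments. For short fragments 10 of 14 Sox genes rose with a median difference of 49.6 points, and the family mean was 44.5% ± 4.23 in induced and 4.55% ± 1.99 in control mice. For long fragments 5 of 11 rose with a median difference of 18.2 points, and the family mean was 37.8% ± 4.01 in induced and 5.23% ± 2.49 in control mice. Values ran over a range of 0.253 to 70.7 points for long fragments, so the mean of the family stands for few of its members.

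Of the SoxB1 genes, which keep neural progenitors undifferentiated, Sox1 and Sox2 had the largest changes of the Sox family for short fragments. Sox1 (Gene ID 20664), an early marker of the neural plate, had 67.4%, 85.9% and 84.2% in induced mice and 0.02%, 0.52% and 1.03% in control mice for short fragments, a difference of 78.6 ± 5.60 points (SE, adjusted p = 0.000850). Sox2 (Gene ID 20674), a factor of pluripotency, neural stem cells and the foregut, had 70.7%, 72% and 81.3% in induced and 1.57%, 1.25% and 2.86% in control mice, a difference of 72.8 ± 3.17 points (adjusted p = 0.000294). Every induced mouse was above 65% at both genes, and every control mouse was under 3%. 

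For long fragments Sox1 rose by 70.7 ± 12.5 points (adjusted p = 0.0192), with 46.7%, 75.5% and 91.5% in induced and 0%, 0% and 1.7% in control mice. Sox2 rose by 69.2 ± 16.1 points (adjusted p = 0.0448), with 90.8%, 35.9% and 81.1% in induced and 0.09%, 0% and 0.14% in control mice. The groups were far apart at both genes, but induced mouse 1 was the lowest at Sox1 and induced mouse 2 was the lowest at Sox2. The Sox1 call was lost without any 1 of the control mice or induced mouse 2, with adjusted p between 0.0725 and 0.0823. The Sox2 call was lost without any 1 mouse other than induced mouse 2, with adjusted p between 0.0962 and 0.147. Sox3, the X-linked SoxB1 gene, is described with the other X-linked members.

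Sox21 (Gene ID 223227), a SoxB2 gene that opposes SoxB1 in neural differentiation, did not pass the threshold in either length. It had 18%, 12.4% and 11.5% in induced and 8.3%, 7.8% and 7.3% in control mice for short fragments, a difference of 6.16 ± 1.94 points that did not pass (adjusted p = 0.0931). For long fragments it had 30.5%, 16.3% and 15.6% in induced and 0.04%, 7.67% and 0% in control mice, a difference of 18.2 ± 5.20 points (adjusted p = 0.0805). The groups did not overlap for either length, but induced mouse 1 stood above the other two. Without that mouse the short-fragment difference was 4.15 points and passed (adjusted p = 0.00778), and on the logit scale the adjusted p was 0.0384. The long-fragment difference passed on median-centred levels (adjusted p = 0.0397).

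The 3 SoxC genes, close relatives in sequence, gave 3 different results. Sox11 (Gene ID 20666), a factor of maturing neurons, rose by 68.4 ± 4.66 points for short fragments (adjusted p = 0.000758), with 61.3%, 71.0% and 78.3% in induced and 1.33%, 2.98% and 1.11% in control mice. For long fragments Sox11 had 22.6%, 75.9% and 76.6% in induced and 0.07%, 1.88% and 2.33% in control mice, and the difference of 56.9 ± 17.0 points did not pass (adjusted p = 0.0919). Induced mouse 1 was low there, and without it the difference was 74.8 points (adjusted p = 0.000179), and on the logit scale it passed with all mice (adjusted p = 0.0194). Sox12 (Gene ID 20667), which is expressed in many tissues, reached a lower level for short fragments, 21.1% ± 2.48 in induced mice, against 0.187% ± 0.101 in control mice, a rise that passed (adjusted p = 0.000676). Its long-fragment values are given with the fragment comparison. Sox4, the third SoxC gene, is described with the gut-expressed members.

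Members of the SoxD group, which act with Sox9 in cartilage and in other lineages, stayed in the lower part of the range. Sox6 (Gene ID 20679), a factor of cartilage, muscle and red blood cells, had 38.01%, 25.3% and 21.9% in induced and 0.1%, 0.13% and 0.26% in control mice for short fragments, a rise of 28.2 ± 4.64 points (adjusted p = 0.0116). Long fragments gave 15.6%, 17.6% and 18.2% in induced and 0%, 9.05% and 6.6% in control mice, a rise of 11.9 ± 2.68 points (adjusted p = 0.0405). The groups did not overlap in either case. The short-fragment call was lost without any 1 of the control mice, with adjusted p between 0.0525 and 0.0548, and the long-fragment call without any 1 mouse other than control mouse 1, with adjusted p between 0.0532 and 0.124. On the arcsine square root scale the long-fragment call was lost as well (adjusted p = 0.135). The gene has 2 listed promoters, and at the 1 that could be tested for long fragments the difference of 10.6 points did not pass over all promoters (adjusted p = 0.400).

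Sox13 (Gene ID 20668), known from γδ T cells and arteries, was unmethylated throughout. It had 0.16%, 0% and 0.07% in induced and 0.04%, 0.04% and 0% in control mice for short fragments, a difference of 0.05 ± 0.0621 points (adjusted p = 0.636). The long-fragment values were 0.25%, 0.85% and 0% in induced and 0%, 0% and 0% in control mice, a difference of 0.367 ± 0.243 points (adjusted p = 0.447). The groups overlapped for both lengths, at levels under 1%, although its RefSeq window is one of the most CG-dense among the members.

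Sox8 (Gene ID 20681), a SoxE gene of the neural crest and testis, rose for short fragments by 48.0 ± 9.52 points (adjusted p = 0.0219), with 29.0%, 60.6% and 57.6% in induced and 0.72%, 1% and 1.47% in control mice. The groups were well separated, with induced mouse 1 the lowest of its group. The call was lost without any 1 of the control mice, induced mouse 2 or induced mouse 3, with adjusted p between 0.0633 and 0.0869. Sox30 (Gene ID 214105), a factor of sperm formation, started higher than most members. It had 76.3%, 72.2% and 86.2% in induced and 14.5%, 9.84% and 19.9% in control mice for short fragments (adjusted p = 0.000972), and 89.9%, 80.03% and 84.7% in induced and 20.3%, 41.2% and 24.9% in control mice for long fragments (adjusted p = 0.00601). The rises were 63.4 ± 4.77 points for short and 56.1 ± 6.61 points for long fragments, and in each the groups did not overlap.

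All Pax genes that could be tested rose, 7 of 7 for short and 4 of 4 for long fragments, where 27.6% and 23.2% of all tested genes rose. In a limma fit with the replicate number as a block, the 4 long-fragment calls were lost, with adjusted p between 0.0550 and 0.0654. Over all genes, 651 rose for long fragments in that fit, against 1421 without the block. The short-fragment calls of Pax6 (adjusted p = 0.0625) and Pax9 (adjusted p = 0.0545) were lost in that fit as well. Their differences were close to one another, between 55.6 and 71.2 points for short and between 58.6 and 61.9 points for long fragments. The family mean was 64.7% ± 9.07 in induced and 1.83% ± 0.513 in control mice for short fragments, and 61.0% ± 14.5 in induced and 1.34% ± 0.871 in control mice for long fragments. The mean over Pax genes was 55.5%, 65.0% and 73.7% in the 3 induced mice for short fragments and 47.4%, 59.4% and 76.3% for long fragments, so the mice kept their order.

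The largest Pax change for short fragments was at Pax3 (Gene ID 18505), a factor of neural crest and muscle precursors, with 66.9%, 70.8% and 80.4% in induced and 0.68%, 2.39% and 1.36% in control mice and a rise of 71.2 ± 3.801 points (adjusted p = 0.000447). Next came Pax2 (Gene ID 18504), which directs kidney and eye development, with 62.9%, 66.1% and 76.2% in induced and 1.05%, 0.52% and 1.11% in control mice and a rise of 67.5 ± 3.804 points (adjusted p = 0.000513). The smallest was at Pax9 (Gene ID 18511), a factor of pharyngeal pouches, teeth and palate, with 38.9%, 62.8% and 68.2% in induced and 1.61%, 1.11% and 0.26% in control mice and a rise of 55.6 ± 8.5 points (adjusted p = 0.00904). Even at Pax9 the lowest induced mouse was far above the highest control mouse.

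Pax1 (Gene ID 18503), the close relative of Pax9 that acts in the vertebral column and thymus, had the largest long-fragment rise of the family, 61.9 ± 7.80 points (adjusted p = 0.00732), with 50.4%, 62.2% and 78.3% in induced and 0.36%, 4.54% and 0.32% in control mice. Pax2 rose by 58.6 ± 7.88 points for long fragments (adjusted p = 0.00894), with 47.7%, 59.0% and 76.0% in induced and 1.21%, 1.5% and 4.18% in control mice. Pax7 (Gene ID 18509), the relative of Pax3 that marks muscle stem cells, rose by 58.6 ± 7.17 points (adjusted p = 0.00675), with 45.7%, 59.0% and 71.9% in induced and 0%, 0% and 0.76% in control mice. In all 3 genes mouse 1 was the lowest and mouse 3 the highest of the induced group. For short fragments Pax7 rose by 65.3 ± 6.69 points (adjusted p = 0.00238) and Pax1 by 59.6 ± 4.62 points (adjusted p = 0.00104).

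T-box genes held the largest single changes of the 4 families for short fragments. Of 8 tested Tbx genes 7 rose for short fragments with a median difference of 66.3 points, and 3 of 4 rose for long fragments with a median difference of 55.4 points. The family mean was 67.8% ± 7.34 in induced and 5.18% ± 1.53 in control mice for short fragments, and 59.1% ± 6.92 in induced and 9.46% ± 1.56 in control mice for long fragments. Control levels of this family reached 20.1% at Tbx1 for long fragments, where most other members were near 0.

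The related genes Tbx2, Tbx3, Tbx4 and Tbx5 pattern limbs, heart and lung. They lie as neighbouring pairs, Tbx2 with Tbx4 and Tbx3 with Tbx5, with 0 coding genes between the partners in the RefSeq order of GRCm38.p6. Tbx5 (Gene ID 21388), needed for the forelimb and heart, had 81.5%, 74.2% and 93.6% in induced and 3.83%, 2.35% and 0% in control mice for short fragments, a rise of 81.0 ± 5.43 points (adjusted p = 0.000729). Tbx2 (Gene ID 21385), a repressor in heart and limb, had 85.3%, 71.5% and 88.7% in induced and 2.69%, 7.45% and 2.06% in control mice, a rise of 77.7 ± 5.20 points (adjusted p = 0.000727). Every induced mouse exceeded 70% at both genes. Tbx2 rose for long fragments as well, with 77.3%, 87.3% and 98.8% in induced and 13.3%, 16.1% and 22.8% in control mice and a difference of 70.4 ± 6.46 points (adjusted p = 0.00305).

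Tbx4 (Gene ID 21387), which acts in hindlimb and lung, rose by 63.2 ± 8.33 points for short fragments (adjusted p = 0.00543), with 54.5%, 71.9% and 84.6% in induced and 9.9%, 5.52% and 5.93% in control mice. The long-fragment rise was 53.8 ± 5.69 points (adjusted p = 0.00449), with 41.9%, 59.8% and 59.9% in induced and 0%, 0% and 0% in control mice. The gene has more than 1 listed promoter, and for short fragments both of them rose, by 70.1 and 56.3 points (the second with adjusted p = 0.0330 over all promoters). For long fragments 1 promoter had a difference of 72.7 points that did not pass over all promoters (adjusted p = 0.0543).

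Tbx3 (Gene ID 21386), a factor of limb and mammary gland, was the exception among these genes. It had 27.5%, 25.2% and 45.8% in induced and 11.2%, 19.1% and 11.7% in control mice for short fragments, and the difference of 18.8 ± 6.61 points did not pass (adjusted p = 0.126). For long fragments it had 24.8%, 9.26% and 18.3% in induced and 0%, 0.03% and 0.95% in control mice, and the difference of 17.1 ± 4.28 points did not pass (adjusted p = 0.0555). The groups did not overlap in either case, but the induced levels were well below those of its neighbour Tbx5. Without induced mouse 2 the long-fragment difference was 21.2 points and passed (adjusted p = 0.0134), as it did on the logit scale (adjusted p = 0.00607). The short-fragment difference passed in 1 limma fit over both lengths (adjusted p = 0.0339).

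Tbx1 (Gene ID 21380), a factor of the pharyngeal arches, rose by 65.0 ± 4.59 points for short fragments (adjusted p = 0.000837), with 64.5%, 76.2% and 80.8% in induced and 9.87%, 8.4% and 8.37% in control mice. The long-fragment rise was 57.1 ± 8.67 points (adjusted p = 0.0125), with 80.6%, 59.9% and 90.9% in induced and 19.3%, 20.01% and 21.0% in control mice. Its control mice were close to one another in both fragment lengths, whereas its induced mice were more spread. The long-fragment call was lost without any 1 of the control mice, with adjusted p between 0.0592 and 0.0611. Tbx15 (Gene ID 21384), a factor of skeleton and fat cells, had 38.9%, 51.0% and 45.4% in induced and 0.35%, 0.28% and 0.36% in control mice for short fragments, a rise of 44.7 ± 3.30 points (adjusted p = 0.000925). Tbx18 (Gene ID 76365), known from the ureter, heart and somites, had 60.1%, 64.5% and 83.0% in induced and 1.04%, 2.99% and 0.92% in control mice and rose more, by 67.6 ± 6.65 points (adjusted p = 0.00211).

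The 3 Zic genes rose, 3 of 3 for short and 3 of 3 for long fragments. The family mean was 46.7% ± 6.64 in induced and 1.18% ± 0.616 in control mice for short fragments, and 57.5% ± 3.71 in induced and 1.85% ± 1.29 in control mice for long fragments. Differences ran between 16.8 and 71.1 points for short and between 29.4 and 76.0 points for long fragments, so the family spans a wide range in spite of its few members.

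Zic1 (Gene ID 22771), a factor of cerebellum and neural tube, was the strongest, with 63.7%, 75.8% and 82.9% in induced and 1.55%, 3.03% and 4.58% in control mice for short fragments and a rise of 71.1 ± 5.34 points (adjusted p = 0.000970). Long fragments gave 71.5%, 77.6% and 88.3% in induced and 0.75%, 0.88% and 7.8% in control mice, a rise of 76 ± 5.17 points (adjusted p = 0.00149), the largest among the 22 members tested there. Zic2 (Gene ID 22772), which forebrain development needs, had 38.1%, 50.7% and 58.1% in induced and 0.28%, 0.03% and 0.54% in control mice for short fragments, a rise of 48.7 ± 5.49 points (adjusted p = 0.00326). It was more even among mice for long fragments, with 66.6%, 59.6% and 64.8% in induced and 5.42%, 0% and 1.21% in control mice and a rise of 61.4 ± 2.54 points (adjusted p = 0.000538). Its neighbour Zic5, with 0 coding genes between them in the RefSeq order of GRCm38.p6, is described with the fragment comparison.

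**Figure D2:**
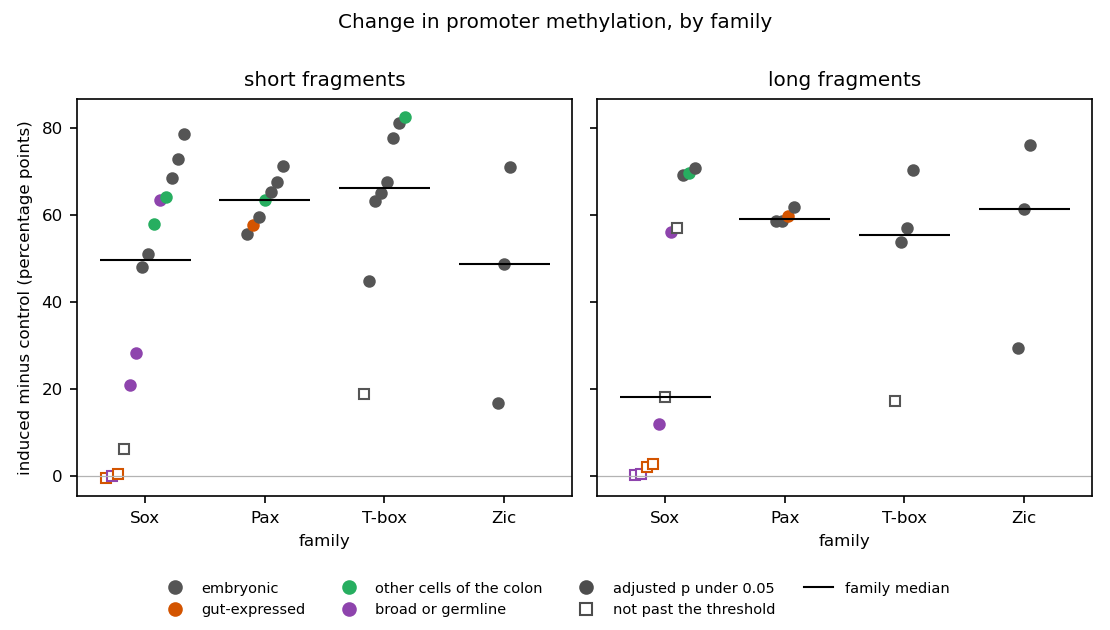
Induced minus control difference in percentage points of each tested member, by family and fragment length; each point is 1 member, lines are family medians, colours are the classes of members, and open squares did not pass the threshold. Pax points lie close together between 55.6 and 71.2 points for short fragments, whereas Sox points spread between -0.48 and 78.6 points.

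Embryonic members and the few members that the gut epithelium itself uses were then set side by side. The embryonic class was a remainder. It held every member not listed as gut-expressed, as known from other cells of the colon, or as broadly expressed or germline. For short fragments 19 of 21 tested embryonic members rose, with a median difference of 65.0 points, and their mean was 61.5% ± 7.45 in induced and 4.45% ± 0.342 in control mice. For long fragments 11 of 14 rose, with a median difference of 58.6 points, and their mean was 58.0% ± 8.32 in induced and 3.74% ± 0.808 in control mice. Among the 3 gut-expressed members only Pax6 rose, and the median difference was 0.453 points for short and 2.85 points for long fragments. The 1 of 3 that rose is a share near the 27.6% (short) and 23.2% (long) of all tested genes that rose, so the count shows nothing particular to the gut-expressed members, whereas the embryonic counts lie above those shares. No test was made of either class.

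Sox9 (Gene ID 20682) stayed unmethylated in both groups for short fragments, with 0.05%, 0.13% and 0.13% in induced and 0.5%, 0.03% and 1.22% in control mice and a difference of -0.48 ± 0.330 points (adjusted p = 0.441). The long-fragment values were 3.28%, 1.21% and 1.82% in induced and 0.03%, 0% and 0% in control mice, a difference of 2.09 ± 0.585 points that did not pass (adjusted p = 0.0759). The long-fragment groups did not overlap, at levels under 4%. The difference passed on the arcsine square root scale (adjusted p = 0.00881), on the logit scale (adjusted p = 0.0131) and without induced mouse 1, where it was 1.51 points (adjusted p = 0.0211).

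Sox4 (Gene ID 20677) had 0%, 0% and 1.37% in induced and 0%, 0% and 0.01% in control mice for short fragments, a difference of 0.453 ± 0.433 points (adjusted p = 0.568). For long fragments it had 18.3%, 22.5% and 16.8% in induced and 8.73%, 22.7% and 17.7% in control mice, a difference of 2.85 ± 4.21 points (adjusted p = 0.697). The groups overlapped in both cases. The direction of the small differences was not stable, being -0.00333 points without induced mouse 3 for short fragments and -0.965 points without control mouse 1 for long fragments.

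Pax6 (Gene ID 18508), which is also an eye and brain factor, rose like the other Pax genes. It had 41.1%, 65.5% and 73.0% in induced and 3.89%, 1.31% and 1.61% in control mice for short fragments, a rise of 57.6 ± 9.13 points (adjusted p = 0.0103). Long fragments gave 45.8%, 57.4% and 79.1% in induced and 0%, 0% and 3.17% in control mice, a rise of 59.7 ± 9.34 points (adjusted p = 0.0136). The groups were well apart, but the induced mice were widely spread. The short-fragment call was lost without control mouse 3 (adjusted p = 0.0504), and the long-fragment call without any 1 of the control mice, with adjusted p between 0.0609 and 0.0648.

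The members listed as best known from other cells that a colon can hold rose in every test made. For short fragments 4 of 4 rose, with a median difference of 63.8 points, and for long fragments the 1 that was tested rose. Beside these counts, 27.6% of all tested genes rose for short and 23.2% for long fragments. Sox13, known from γδ T cells and arteries, was listed as broadly expressed instead, and it did not pass in either length. Tbx21 (Gene ID 57765), T-bet of type 1 T helper and natural killer cells, had 82.3%, 89.5% and 85.9% in induced and 2.18%, 7.71% and 0% in control mice for short fragments, and its rise of 82.6 ± 2.92 points was the largest of all members (adjusted p = 0.000193). Pax5 (Gene ID 18507), the B cell identity factor, had 70.9%, 56.9% and 71.1% in induced and 3.59%, 1.35% and 3.41% in control mice, a rise of 63.5 ± 4.49 points (adjusted p = 0.000837). At both lymphocyte genes every induced mouse was above 55% and every control mouse under 8%.

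The 2 SoxF genes of endothelium both rose. Sox17 (Gene ID 20671), which also forms embryonic endoderm, had 55.7%, 65.2% and 76.7% in induced and 4.07%, 0% and 1.1% in control mice for short fragments, a rise of 64.1 ± 5.83 points (adjusted p = 0.00165). Sox7 (Gene ID 20680) had 43.1%, 63.7% and 73.7% in induced and 1.58%, 0.46% and 4.65% in control mice for short fragments, a rise of 57.9 ± 8.60 points (adjusted p = 0.00818). For long fragments Sox7 had 62.9%, 74.5% and 79.0% in induced and 0.73%, 2.25% and 4.65% in control mice, a rise of 69.6 ± 4.69 points (adjusted p = 0.00148). Both genes were near 0 in control mice. The summed level of the endothelial marker promoters given above moved the same way, and its part in these values was not tested.

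Broadly expressed and germline members, Sox6, Sox12, Sox13 and Sox30, were unlike one another. For short fragments 3 of 4 rose with a median difference of 24.6 points and a range of 0.05 to 63.4. For long fragments 2 of 4 rose with a median difference of 6.14 points and a range of 0.253 to 56.1. Beside these counts, 27.6% of all tested genes rose for short and 23.2% for long fragments. With 4 genes of such spread, the medians say little about a class.

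**Figure D3:**
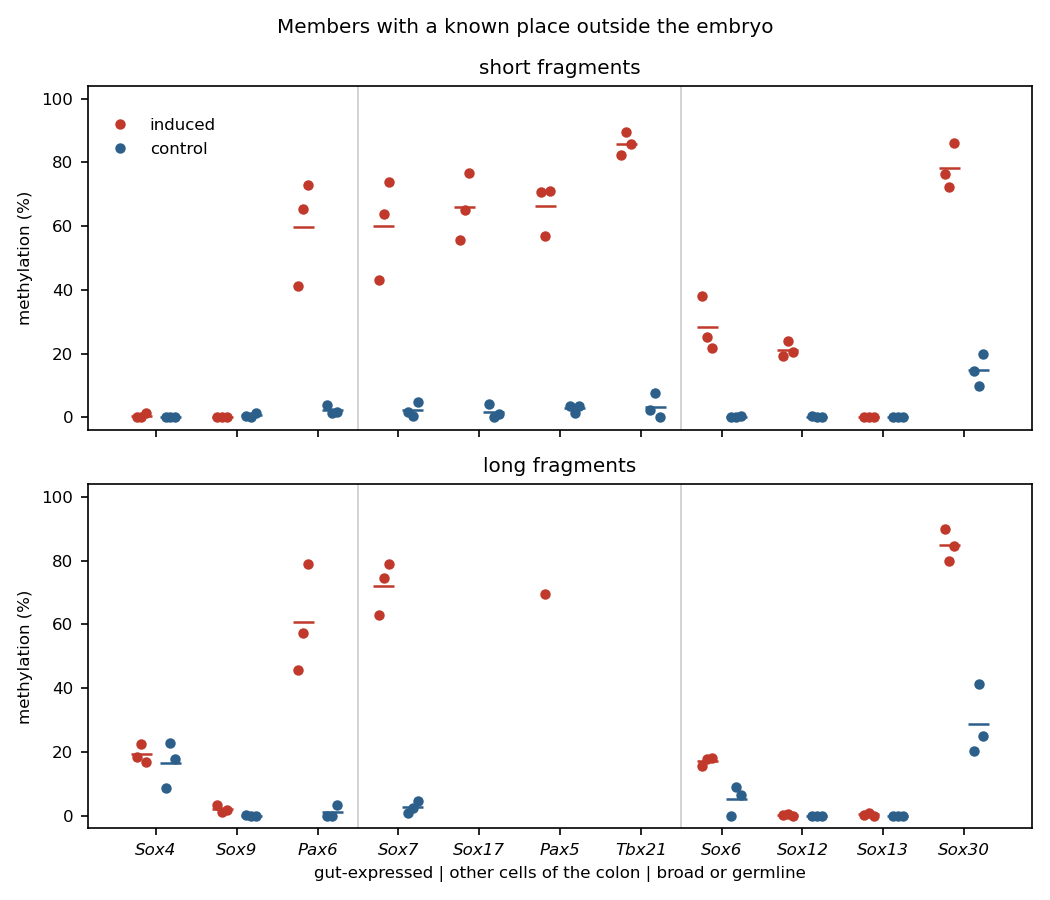
Methylation level in percent in each mouse for the gut-expressed members, the members known from other cells of the colon and the broadly expressed or germline members, induced mice left of control mice; each point is 1 library and lines are means over 3 mice. Sox9 and Sox4 lie near 0 for short fragments in both groups, whereas Pax6, Tbx21, Pax5, Sox17 and Sox7 are at 41.1% or more in induced mice and under 8% in control mice.

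The 2 fragment lengths of a gene hold different CpGs of its promoter region, and 22 members could be compared between them. In the separate fits 15 of these rose in both, 2 (Sox11 and Sox12) rose with short fragments alone, 0 with long fragments alone, and 5 (Sox4, Sox9, Sox13, Sox21 and Tbx3) in neither. This split depended on the fit. In 1 limma fit over both lengths 19 of the 22 rose for long fragments, beside 1664 of 5309 genes. There Sox11 (adjusted p = 0.00653), Sox9 (0.00911), Sox21 (0.00580) and Tbx3 (0.0489) passed for long fragments. Tbx3 passed for short fragments as well (adjusted p = 0.0339). The split by length was not counted over all genes, so it has no share to stand beside. A call in 1 length and not in the other is no test of a difference, so the change was compared between lengths as an interaction term. The limma fit took the 5309 genes listed in all 12 libraries and treated each mouse as a block with a random effect. By this test 2 of 22 members differed, where 2.64% of all genes changed more and 2.07% changed less for long than for short fragments. At an unadjusted p under 0.05 there were 4 of 22 members, against 14.5% of all genes.

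Sox12 changed for short fragments alone. It had 19.1%, 23.9% and 20.4% in induced and 0.25%, 0.07% and 0.24% in control mice for short fragments. The long-fragment values were 0.21%, 0.55% and 0% in induced and 0%, 0% and 0% in control mice, a difference of 0.253 ± 0.157 points (adjusted p = 0.412). The induced mice were close to 20% in one length and under 1% in the other. The change was -20.7 ± 1.34 points in long relative to short fragments (interaction, SE, adjusted p = 5.42e-05).

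Zic5 (Gene ID 65100), a Zic gene of neural tube and neural crest, went the other way. It had 17.0%, 17.0% and 17.2% in induced and 0.14%, 0.04% and 0.46% in control mice for short fragments, a rise of 16.8 ± 0.156 points (adjusted p = 1.27e-05). For long fragments it had 28.4%, 28.4% and 32.1% in induced and 0.07%, 0.51% and 0% in control mice, a rise of 29.4 ± 1.21 points (adjusted p = 0.000538). Its induced mice were close to one another in each length, at partial levels far below those of Zic1. The change was 12.6 ± 1.19 points larger in long fragments (adjusted p = 0.000465). 

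The other members with an unadjusted p under 0.05 were Sox9, with a change 2.57 ± 0.668 points larger in long fragments (adjusted p = 0.0714, and 0.0225 on the arcsine square root scale), and Sox6, whose change was -16.3 ± 5.34 points in long relative to short fragments (adjusted p = 0.160). Zic2 differed by 12.7 points in the direction of Zic5 without passing (adjusted p = 0.399). For the remaining members the 2 lengths were not shown to differ, which does not show that they were equal.

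**Figure D4:**
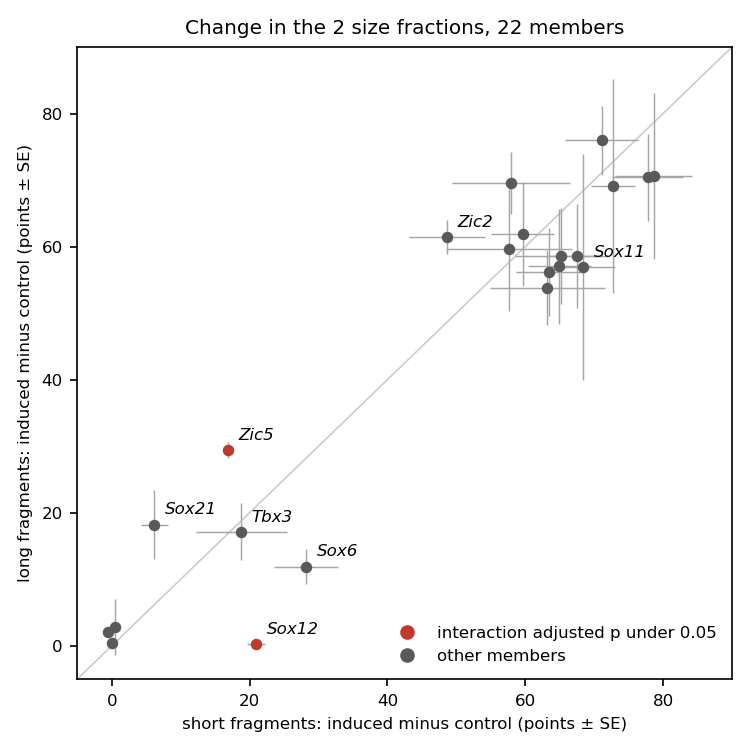
Induced minus control difference in percentage points for short fragments (x axis) and long fragments (y axis) of the 22 members tested in both; bars are SEs and red marks Sox12 and Zic5. Sox12 lies near 0 on the long-fragment axis at 20.9 points for short fragments, and Zic5 lies above the diagonal at 16.8 points for short and 29.4 points for long fragments.

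Sox3 and Tbx22 lie on the X chromosome, and their control values differed between mice. The median level of X-linked genes for short fragments was 55.7%, 51.6% and 48.9% in induced mice and 34.5%, 0.065% and 33.2% in control mice. For long fragments it was 54.6%, 52.7% and 62.4% in induced mice and 37.0%, 0% and 36.6% in control mice. Control mouse 2 thus stood apart at X-linked genes in both of its libraries, while the median of all other genes was between 0% and 0.83% in every library. The labels give no sex.

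Sox3 (Gene ID 20675), a neural and pituitary factor, had 81.1%, 81.5% and 83.7% in induced and 36.0%, 9.54% and 47.4% in control mice for short fragments, a rise of 51.1 ± 10.6 points (adjusted p = 0.0254). Control mouse 2 was the lowest of its group, and every induced mouse was above every control mouse. Without control mouse 2 the rise was 40.4 points (adjusted p = 0.0101). The call was lost without control mouse 1 or any 1 of the induced mice, with adjusted p between 0.0729 and 0.0874.

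**Figure D5:**
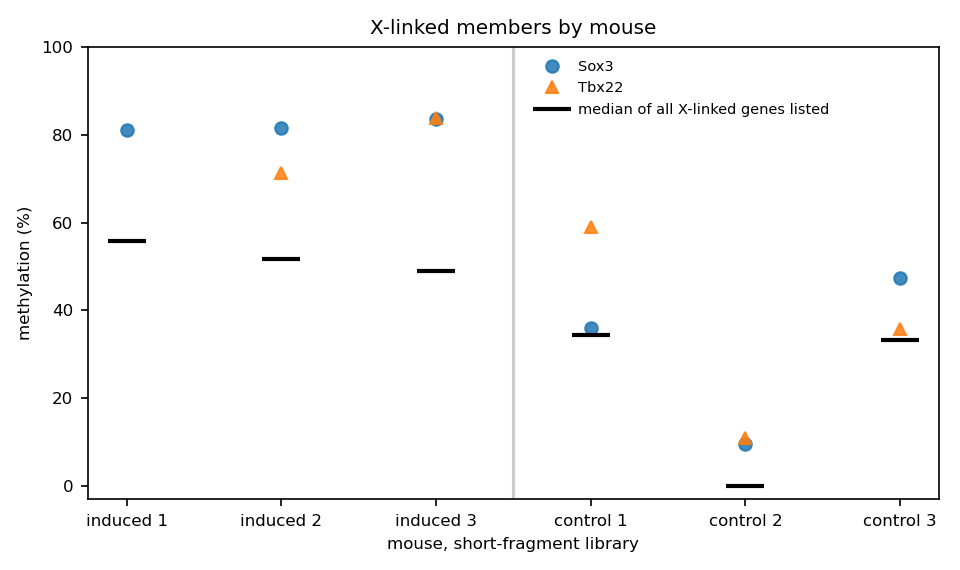
Methylation level in percent per mouse of the X-linked members Sox3 and Tbx22 beside the median over X-linked genes, induced mice left of control mice, for short fragments; each point is 1 library. Control mouse 2 is the lowest control at Sox3 (9.54%) and Tbx22 (10.8%) for short fragments, and its X-linked median is 0.065%.

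Some members were not listed in every library, and they were kept out of the counts above. Tbx22, a factor of palate closure, had 71.3% and 83.9% in induced mice 2 and 3 for short fragments and was not listed in induced mouse 1, against 58.9%, 10.8% and 35.8% in control mice. In a limma fit of genes listed in at least 2 libraries of each group, its difference of 42.4 ± 17.2 points did not pass (adjusted p = 0.219). The highest control mouse was below the lower induced mouse.

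For long fragments the same fit covered 4 further members. Sox3 had 75.9%, 83.7% and 77.1% in induced mice and 51.8% and 35.7% in control mice 1 and 3, a rise of 35.1 ± 6.34 points (adjusted p = 0.0416). Tbx15 had 47.3%, 41.5% and 43.5% in induced mice and 0.12% and 0% in control mice 1 and 3, a rise of 44.0 ± 2.08 points (adjusted p = 0.00220). Both genes rose, and their groups did not overlap. Sox8 had 30% and 60% in induced mice 2 and 3 and 0% in all 3 control mice, a difference of 45.0 ± 10.5 points (adjusted p = 0.0766). Tbx5 had 46.3% and 91.9% in induced mice 2 and 3 and 0.79% and 3.94% in control mice 2 and 3, a difference of 66.7 ± 20.8 points (adjusted p = 0.216). These 2 genes did not pass, with 2 induced mice each.

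For long fragments 3 members were listed in induced mice only. Tbx20, a heart factor, had 51.9%, 91.6% and 92.8% in the induced mice and was not listed in any control mouse. Pax8, a factor of thyroid and kidney, was listed in induced mouse 2 alone, at 100%, and Pax5 in the same mouse alone, at 69.6%. No test can be made of these values. Of 8748 genes listed in any long-fragment library, 35 (0.400%) were listed in all 3 induced and no control mouse and 10 (0.114%) in all 3 control and no induced mouse, so a listing of this kind was rare in both directions.

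The induced mice differed in how far the members had moved. The mean over the members tested for short fragments was 48.8%, 54.9% and 61.2% in induced mice 1, 2 and 3, against 3.91%, 3.34% and 4.14% in control mice. Long fragments gave 43.7%, 46.4% and 55.6% in induced mice, against 3.20%, 5.83% and 5.46% in control mice. Mouse 3 was the highest in both lengths. Of the 27 members that rose for short fragments, mouse 1 was the lowest induced mouse at 22 and mouse 3 the highest at 21. Of the 15 that rose for long fragments, mouse 1 was the lowest at 11 and mouse 3 the highest at 12. The mean over all listed genes of the short-fragment libraries was 16.8%, 17.9% and 19.4% in induced mice 1, 2 and 3, in the same order, and the part of depth or cell composition in it was not tested.

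Genes related to the 4 families but outside the naming rule were read as a further list of 23 genes, holding other T-box genes, the Gli and Glis zinc finger genes, other HMG box genes of the Wnt pathway, and genes that work with Pax such as those of the Eya and Dach families. For short fragments 13 of 18 measured relatives rose and 0 fell, with a median difference of 44.7 points. For long fragments 11 of 19 rose and 0 fell, with a median difference of 41.3 points, and 7 rose without control mouse 1 or control mouse 2. On median-centred levels 13 relatives rose and 1 fell for short fragments, and 11 rose and 3 fell for long fragments. Of all genes 27.6% rose for short and 23.2% for long fragments, and no test was made of the relatives as a list.

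The largest rise among relatives for short fragments was at Tbr1, a T-box gene of cortical neurons, with 84.8% in induced and 10.1% in control mice (74.7 points, adjusted p = 0.000112). Gli2, a transcription factor of Hedgehog signalling, followed with 78.6% in induced and 5.5% in control mice (73.1 points). For long fragments the largest was at Six2, a factor of kidney progenitors, with 72.5% in induced and 1.29% in control mice, and the next at Gli2, with 73.0% in induced and 8.3% in control mice. At the low end, Eya3 had 0.297% in induced and 0.463% in control mice and Six5 had 0.05% in induced and 0.197% in control mice for short fragments. Dach1 had 0.03% in induced and 0% in control mice, and Glis3 0% in both, for long fragments. High and low genes thus stood side by side within the same families here too.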

How the data were processed

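Reduced representation bisulfite sequencing was read from 12 libraries, 2 fragment lengths from each of 6 mice. Each deposited table gives, per the file headers, a methylation fraction (0 to 1) averaged over CpGs for every gene and promoter, without read counts. Not given in the sources used here are the aligner, the genome build, the extent of a promoter, any minimum coverage and the bisulfite conversion. Bisulfite levels do not separate 5-methylcytosine from 5-hydroxymethylcytosine or unconverted cytosine.

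Fractions were multiplied to percent. A gene's value equalled the mean of its listed promoters within 0.02 points. All 35 members and 99.8% of gene IDs matched RefSeq (GRCm38.p6), used for names, neighbours, chromosomes and promoter windows.

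Groups came from the labels. Each length was fitted with limma 3.58.1 (lmFit, eBayes) in R 4.3.3 on genes listed in all 6 libraries, with Benjamini-Hochberg adjustment over those genes and a threshold of 0.05. The interaction fit had a consensus correlation of 0.0674 within mice. The mice are separate animals. The scripts were tested on simulated data. Alternatives were other scales (arcsine square root, and logit with an offset of 0.01), genes in at least 2 libraries a group, a trended robust prior, median centring, genes with identical values counted once, promoter values, 1 fit over both lengths, a replicate block and leaving out each mouse. Family medians and the counts over embryonic members and relatives under each alternative were added after the data were seen.

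Members and lists were chosen with earlier results of these data known, so families are described by counts and medians with no test. Genes named in full were the gut-expressed members, those of other colon cells, the 2 largest and 2 smallest changes per family, members that did not pass and members that differed between lengths; a few more were named after their values were seen. Some genes of these families and lists are not reported here.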

Additional observations from a re-analysis of the deposited data

Results flagged for a closer look

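The change at Sox12 differed between fragment lengths in the interaction test. It was -20.7 ± 1.34 points in long relative to short fragments (limma, SE, adjusted p = 5.42e-05), with means of 0.253% in induced and 0% in control mice for long fragments and 21.1% in induced and 0.187% in control mice for short fragments. All 3 induced mice were above all 3 control mice for short fragments. Leaving out each mouse in turn gave -21.7 to -19.5 points, with adjusted p between 4.66e-06 and 0.00250.

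The change at Zic5 differed in the other direction, by 12.6 ± 1.19 points (adjusted p = 0.000465), with means of 29.6% in induced and 0.193% in control mice for long fragments and 17.0% in induced and 0.213% in control mice for short fragments. All 3 induced mice were above all 3 control mice in each length. Leaving out each mouse in turn gave 11.4 to 13.2 points, with adjusted p between 3.90e-06 and 0.00990. Which CpGs of either promoter each length covers is not given in the sources used here, and the part of that coverage in the difference was not tested.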

How the results depend on the processing

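Of the 27 members that rose for short fragments 23 kept the call whichever mouse was left out, and of the 15 for long fragments 10 did. The arcsine square root and logit scales, the trended prior, promoter values and genes with identical values counted once kept both counts within 1.5 times. In 1 fit over both lengths, which holds only 22 members, 18 members and 13 embryonic members rose for short fragments. For long fragments 19 members and 14 embryonic members rose in that fit. Median centring made 1 short-fragment member fall, Sox13 at -0.346 points (limma, adjusted p = 0.0491), and turned the long-fragment values of Sox12 to -0.248 and of Sox13 to -0.135 points, neither past the threshold. The replicate block left 22 of 27 members past the threshold for short fragments, where 2110 of all genes rose against 2765 without it. For long fragments it left 6 members, of which 5 were embryonic, and 5 relatives, where 651 of all genes rose against 1421 without it. Without 1 control mouse or 1 induced mouse 7 to 10 relatives rose for long fragments. Deviations of same-numbered mice correlated at 0.0736, 0.00398 and -0.0498 for short and 0.00102, 0.0366 and 0.0247 for long fragments. For short fragments induced mice 2 and 3 correlated best with a control mouse of another number. For long fragments each induced mouse correlated best with the control mouse of its own number, but control mouse 1 correlated best with induced mouse 3 (0.0145). The replicate numbers were thus neither shown to pair the mice nor shown not to. Medians over members in place of means gave induced minus control differences of 55.2 (Sox) points for short and 19.9 (Sox) and 62.8 (Zic) points for long fragments. Without 1 mouse in turn, Sox4 ran between -0.00333 and 0.682 points for short and between -0.965 and 6.02 points for long fragments. Without 1 control mouse, 882 to 900 of all genes rose for long fragments, against 1421 with all mice.

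None of the members whose difference between lengths changed sign had passed the interaction test. Leaving out 1 mouse in turn gave -2.43 to 4.82 points at Pax1, -0.502 to 6.61 at Pax6, -19.8 to 2.02 at Sox11, -16.3 to 11.8 at Sox2, -11.9 to 1.33 at Sox30, -1.42 to 5.56 at Sox4, -14.3 to 1.91 at Tbx1 and -8.03 to 4.39 at Tbx3. On the arcsine square root scale the sign changed at Pax7 (0.0166 radians), Sox2 (0.0767), Tbx3 (0.160) and Tbx4 (0.0887). The cause of these changes was not tested. Without read counts, the precision of a level cannot be separated from the spread between the 3 mice of a group.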
